A study of Homo sapiens with 6 samples.

Results

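Histone genes and the genes that supply histone mRNA were examined in NK-92MI cells, an interleukin-2-independent natural killer (NK) cell line, after mitochondrial transfer and without it. The members were the array probe sets whose annotation named nothing but histone genes, together with those of SLBP, NPAT, CASP8AP2, LSM10 and LSM11. This gave 303 of 352859 probe sets, of which 251 measured histones and 52 measured the other 5 genes. The histone probe sets named 93 genes. Probe sets naming exactly the same gene or genes were joined into 1 entry, whose value on an array was the median of its probe sets, so that the members formed 65 of 24214 entries. Of the 60 histone entries, 14 named several genes at once, and the probes of histone copies that are nearly identical cannot be assigned to a single copy.

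The Mitochondrial transfer group held 3 arrays of NK-92MI cells given 5 µg of isolated mitochondria and spun at 1500 g for 15 min. The mitochondria came from WRL-68 cells, which the labels call WRL cells. The Control group held 3 arrays of NK-92MI cells labelled as control. The labels give the same treatment text, transfer with the spin, for control samples too, so the groups were taken from the sample titles. They therefore do not settle whether control cells were centrifuged, and they give neither the time from transfer to harvest, nor whether replicates were separate cultures, so the p-values measure only the spread between these samples. All values are log2 intensities, on which a difference of −1 is a 2-fold lower intensity, and their precision is limited by the number of arrays. Each sample was RNA of a whole culture, in which fewer cells carrying an mRNA and less of it per cell cannot be told apart.

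Histones package DNA into nucleosomes, whose core is made of H2A, H2B, H3 and H4, while the linker histone H1 binds the DNA between them. Most replication-dependent histone genes lie in clusters, have no introns and are transcribed mainly in S phase, when new DNA has to be packaged. Their mRNAs typically end in a stem-loop in place of a poly(A) tail. NPAT and CASP8AP2 act in transcription of these genes, LSM10 and LSM11 are parts of the U7 particle that directs cleavage of the 3′ end, and SLBP binds the stem-loop through processing, export and translation. Variant histones such as H2AZ1 and H3-3B are made throughout the cell cycle, mostly from polyadenylated mRNA.

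Replication-dependent genes are transcribed from short promoters with shared elements. The promoters of 3 of them and of 1 variant are shown here because these genes carried the smallest p-value among the H1, H2A and H2B genes and among the variants. Each sequence holds the 250 bases before and the 50 after the start site (RefSeq, GRCh38.p14), with matches to the motifs in capitals: the H1 box AAACACA, the octamer ATTTGCAT, the CCAAT box CCAAT and the TATA box TATAAA, read on both strands and with no overlap between matches.
H1-4 (chr6:26156079-26156378, plus strand): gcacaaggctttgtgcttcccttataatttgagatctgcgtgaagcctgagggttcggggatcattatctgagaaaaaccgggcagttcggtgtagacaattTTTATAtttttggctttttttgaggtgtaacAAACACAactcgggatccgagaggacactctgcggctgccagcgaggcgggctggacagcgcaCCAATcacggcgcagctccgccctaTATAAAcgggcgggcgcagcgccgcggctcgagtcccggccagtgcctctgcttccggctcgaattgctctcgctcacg
H2AC6 (chr6:26123922-26124221, plus strand): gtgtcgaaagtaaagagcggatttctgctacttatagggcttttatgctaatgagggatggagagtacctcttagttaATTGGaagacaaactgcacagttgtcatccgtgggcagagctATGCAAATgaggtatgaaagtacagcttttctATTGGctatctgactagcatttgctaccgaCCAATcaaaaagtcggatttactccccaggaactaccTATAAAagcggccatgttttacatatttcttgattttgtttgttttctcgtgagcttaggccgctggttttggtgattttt
H2BC21 (chr1:149886633-149886932, minus strand): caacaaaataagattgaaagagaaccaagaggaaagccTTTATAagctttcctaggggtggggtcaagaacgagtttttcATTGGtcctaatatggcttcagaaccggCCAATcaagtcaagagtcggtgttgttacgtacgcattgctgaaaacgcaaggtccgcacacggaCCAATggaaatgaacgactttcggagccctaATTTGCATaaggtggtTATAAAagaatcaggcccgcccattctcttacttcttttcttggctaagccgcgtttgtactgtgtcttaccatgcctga
H2AZ1 (chr4:99950226-99950525, minus strand): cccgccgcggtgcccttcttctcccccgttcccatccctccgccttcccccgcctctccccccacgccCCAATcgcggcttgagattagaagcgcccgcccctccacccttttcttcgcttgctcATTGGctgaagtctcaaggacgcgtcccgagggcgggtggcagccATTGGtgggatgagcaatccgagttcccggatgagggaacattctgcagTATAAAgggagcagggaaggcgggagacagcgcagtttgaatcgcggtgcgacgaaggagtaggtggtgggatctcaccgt
A promoter of this length was found for 80 of the 93 histone genes. The H1 box lay in 5 of 5 replication-dependent H1 promoters, against 5.64% of all 35116 promoters. The octamer lay in 13 of 17 H2B and 10 of 15 H2A promoters, against 1.77% of all, and in 1 of 9 variant promoters. A CCAAT box was present in 52 of 62 replication-dependent promoters, against 34.6% of all, although in only 3 of 13 H4 promoters. A TATA box was present in 41 of 62, against 11.5%. A match is a description of these letters and not evidence of a bound factor.

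The arrays were first checked for depth and identity. Background was set at 5.55, the 95th percentile of 367 olfactory receptor entries, and 13906 entries lay above it. All 20 NK cell markers lay above background. So did 3 of 15 hepatocyte markers (TTR, APOA1 and APOA2) and 2 of 7 measured epithelial markers (KRT8 and KRT19). The others of these 2 lists, among them ALB, AFP, SERPINA1 and EPCAM, lay at background. Of the other lists, 5 of 8 T cell receptor markers, 4 of 8 monocyte markers and 2 of 5 measured B cell markers lay above background. Pearson's r across entries, which are not independent replicates, was 0.966 to 0.967 between transfer arrays, 0.978 to 0.979 between control arrays and 0.966 to 0.969 between the groups, so transfer arrays were no closer to each other than to the controls. The median SD of an entry was 0.23 among transfer arrays and 0.186 among controls.

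The comparison asked whether histone transcripts differed after mitochondrial transfer, a question tied to the study's interest in the proliferation and cell cycle of these cells. The paper reports by flow cytometry that the cells shifted into S phase after transfer. Its sampling time cannot be matched to these arrays, and the relation between that shift and the values below was not tested. Replication-dependent histone transcripts lay lower after transfer: 37 of 40 entries had a negative difference, against 55.5% of all entries, and their median difference was −0.55, or 1.47-fold lower. The median over all entries was −0.04. No histone entry passed an adjusted p of 0.05 in limma over all entries in either direction, where 0.00826% of all entries were called lower and 0.0578% higher. At an unadjusted p under 0.05, 28 of 40 replication-dependent entries (70%) lay lower and 0 higher, against 8.26% and 5.29% of all entries. In 27 of 40 (67.5%) every transfer array lay below every control array, against 13.3% of all entries.

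A difference of −0.5 or lower was found in 25 of 40 replication-dependent entries (62.5%), against 5.66% of all entries. Of the 40 entries, 35 lay above background. Their median difference was −0.59, with 34 negative and 26 separated downwards. All 13906 entries above background had a median of −0.10, with 65.5% negative, 19.9% separated downwards and 0% called lower at the adjusted threshold. The 5 entries at background had a median of −0.03, which describes dim signal only.

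Whether the threshold was passed depended on the setting, including how the variance was modelled and how each entry was valued. With limma's trend and robust options, 20 of 40 replication-dependent entries and the variant H2AZ1 were called lower and no histone entry higher, against 0.962% of all entries lower and 0.471% higher. The 20 entries covered H1, H2A, H2B and H3 but not H4. Without these options, 8 replication-dependent entries were called lower with the brightest probe set of each entry. The count was 3 with dim features left out and 2 with the mean of probe sets. The methods' t-test called no entry after Benjamini-Hochberg adjustment.

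**Figure D1:**
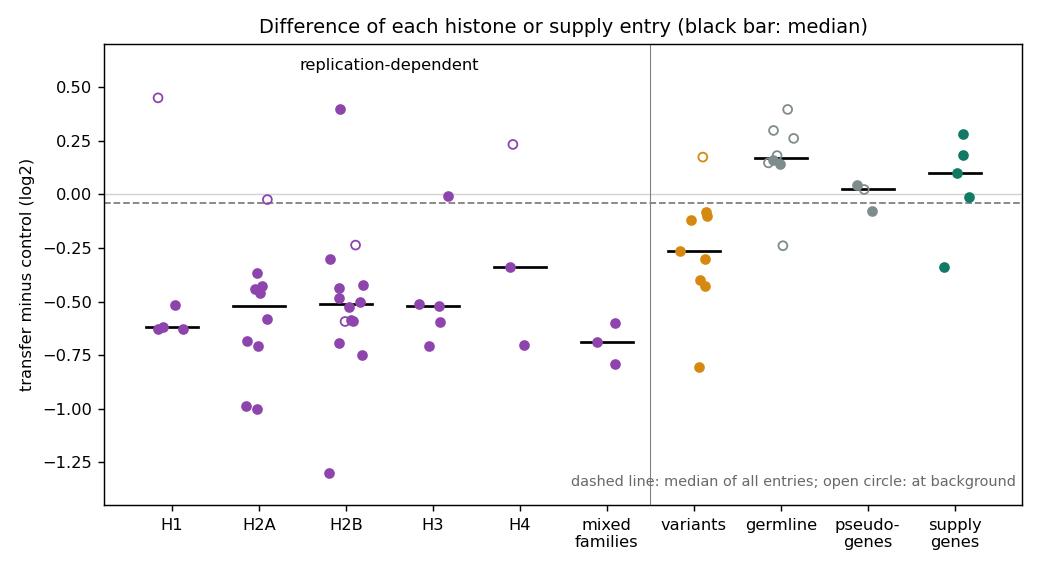
Difference (transfer minus control, log2) of each histone or supply entry, with 1 point per entry, filled where the entry lay above background and open where it lay at background. Black bars are medians and the dashed line is the median of all entries (−0.04). Replication-dependent families have medians between −0.69 and −0.34 (the 3 mixed-family entries are drawn together), below the variants (−0.27) and the supply genes (0.10).

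The shift was present on each array. The median of the replication-dependent entries relative to their control means was −0.55, −0.50 and −0.66 on transfer arrays 1, 2 and 3, and 0.09, −0.06 and −0.04 on control arrays 1, 2 and 3. No transfer array overlapped the controls. The median SD of the replication-dependent entries was 0.147 among transfer arrays and 0.124 among controls, below that of all entries.

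Many histone probe sets were bright, so they were set against other probe sets of like intensity. In the band between 10 and 12, 30 of 30 replication-dependent probe sets were negative with a median of −0.68, against 66.9% negative and a median of −0.10 over all probe sets of that band. Above 12, 25 of 25 were negative with a median of −0.51, against 75.5% and −0.13. Below 6, where most signal is background, 21 of 39 were negative with a median of −0.06, against 49.1% and 0.01. The median of replication-dependent probe sets was thus closer to that of all probe sets in the dimmest band than in any brighter one.

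**Figure D2:**
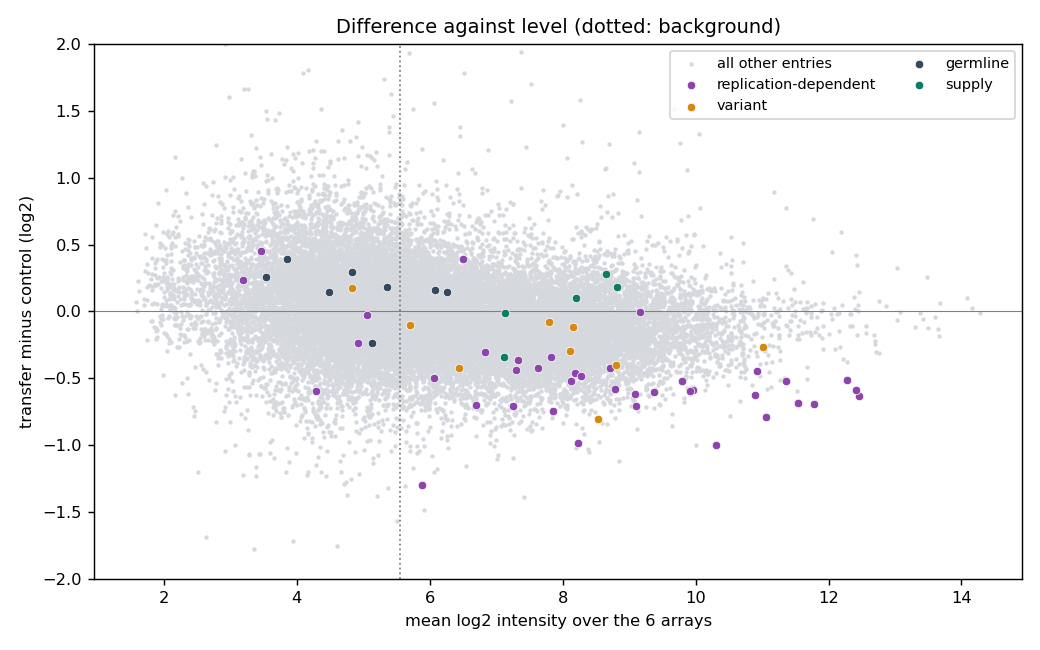
Difference (transfer minus control, log2) against the mean log2 intensity over the 6 arrays for every entry, with histone classes and supply genes in colour and the background as a dotted line. The histone pseudogenes are drawn with the other entries, and 13 entries beyond a difference of 2 in either direction are left out. Of the 35 replication-dependent entries above background, 34 lie below zero.

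The single probe sets were tested in a fit over the whole table. None of the 251 histone probe sets passed an adjusted p of 0.05 in limma, with 0.0034% of all probe sets called lower and 0.0578% higher, and the smallest adjusted p was 0.198. At an unadjusted p under 0.05, 67 of 156 replication-dependent probe sets lay lower and 3 higher, against 5.36% and 4.68% of all probe sets. The difference was negative in 131 of 156, against 54.9% of all probe sets, and the groups were separated downwards in 96 of 156, against 10.3%. With trend and robust options 34 histone probe sets were called lower and 0 higher, against 0.0683% and 0.265% of all. The values of 21 histone probe sets were identical to those of another, so that 240 distinct rows remained.

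H1 linker histones compact the chromatin fibre, and 4 of 5 replication-dependent H1 entries lay lower at an unadjusted p under 0.05. H1-4 had 12.21, 12.16 and 12.08 on the transfer arrays and 12.78, 12.78 and 12.77 on the control arrays. The groups did not overlap, and all 3 of its probe sets were separated. The difference was −0.63 (SE 0.13, adjusted p = 0.186, limma), or 1.55-fold lower.
H1-3 had 8.78, 8.84 and 8.72 after transfer and 9.50, 9.28 and 9.43 in controls, a difference of −0.62 (SE 0.14, adjusted p = 0.199). H1-5 had 10.83, 10.50 and 10.43 after transfer and 11.21, 11.32 and 11.11 in controls, a difference of −0.63 (SE 0.16, adjusted p = 0.228). Both lay lower on every transfer array than on any control array. With trend and robust options, H1-4, H1-3 and H1-5 passed (adjusted p = 7.06e-04, 0.019 and 0.0198). H1-1, a member that lay at background, had values from 2.99 to 4.95 after transfer and from 2.85 to 3.97 in controls, which overlapped.

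H2A pairs with H2B in the nucleosome core, and 8 of 10 H2A entries lay lower at an unadjusted p under 0.05. H2AC6 had the smallest p-value of any histone entry. It had 9.76, 9.99 and 9.69 on the transfer arrays and 10.96, 10.69 and 10.80 on the control arrays, with the groups well apart. The difference was −1.0 (SE 0.16, adjusted p = 0.104, limma), or 2-fold lower, and its 4 probe sets ranged from −1.20 to −0.81. H2AC6 passed when dim features were left out (adjusted p = 0.0212), with trend and robust options (9.45e-04), with the brightest probe set of each entry (0.0190) and with the mean of its probe sets (0.0248), and it did not pass in the other settings.

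The other H2A genes lay lower by less. H2AC7, measured by 1 probe set, had 6.76, 7.05 and 6.87 after transfer and 7.70, 7.57 and 7.53 in controls, a difference of −0.71 (SE 0.15, adjusted p = 0.185). H2AC21 had 11.36, 11.17 and 11.07 after transfer and 11.97, 11.87 and 11.81 in controls, a difference of −0.68 (SE 0.15, adjusted p = 0.186). Neither overlapped the controls. H2AC25 and the entry naming H2AC4 and H2AC8, with the members H2BC13, H2BC10, H3C13 and H1-1, are named here after their values were seen. H2AC25 had 8.14, 7.99 and 7.08 after transfer and 8.51, 8.82 and 8.86 in controls, with transfer array 3 the lowest, a difference of −0.99 (SE 0.28, adjusted p = 0.244). These are the values of the middle one of its 3 probe sets. The brightest differed by −0.55, and the third, at background, by 0.38. The entry naming H2AC4 and H2AC8 had a median at background and a difference of −0.03. It held 5 probe sets, of which the 2 above the probe-set background of 6.15 differed by −1.11 and −0.68 and the 3 dimmer ones by a median of −0.05.

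H2B is the partner of H2A, and 8 of 14 H2B entries lay lower at an unadjusted p under 0.05. H2BC21 had 7.48, 7.44 and 7.53 on the transfer arrays and 8.33, 8.29 and 8.08 on the control arrays, without overlap. The difference was −0.75 (SE 0.14, adjusted p = 0.166, limma), or 1.68-fold lower. H2BC12 had 11.31, 11.58 and 11.40 after transfer and 12.15, 12.06 and 12.16 in controls, a difference of −0.69 (SE 0.14, adjusted p = 0.177). H2BC14 had 12.05, 12.18 and 12.12 after transfer and 12.77, 12.68 and 12.66 in controls, a difference of −0.59 (SE 0.14, adjusted p = 0.199). For all 3 genes each transfer array lay below each control array.

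The H2B family also held the exceptions. H2BC13 had the most negative difference of the members, −1.30 (SE 0.48, adjusted p = 0.318), but its transfer values of 6.41, 4.74 and 4.53 overlapped the control values of 6.29, 6.26 and 7.04. These values lie midway between 2 probe sets. The brighter was separated downwards at −0.45, and the other, at background, overlapped at −2.145. H2BC10, named by 1 probe set of its own, was the only replication-dependent entry with every transfer array above every control array, a pattern seen in 7.56% of all entries. It had 6.61, 6.77 and 6.72 after transfer and 6.41, 6.51 and 5.997 in controls, a difference of 0.40 (SE 0.18, adjusted p = 0.377). The 7 probe sets that name H2BC10 together with 4 other H2B genes were all negative, from −0.995 to −0.088. The direction of that single probe set was therefore not shared by the probe sets common to the 5 genes.

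H3 carries many of the tail modifications of chromatin, and 4 of 5 H3 entries lay lower at an unadjusted p under 0.05. H3C4 had 9.62, 9.65 and 9.59 on the transfer arrays and 10.37, 10.21 and 10.07 on the control arrays, a difference of −0.60 (SE 0.15, adjusted p = 0.206, limma). The entry naming H3C13, H3C14 and H3C15 had 8.61, 9.07 and 8.56 after transfer and 9.52, 9.60 and 9.24 in controls, a difference of −0.71 (SE 0.19, adjusted p = 0.234). Its 4 probe sets were 2 pairs with identical values, 1 pair separated at −0.98 and the other overlapping at −0.43. The entry naming H3-7 with the same 3 genes had 12.13, 12.04 and 11.88 after transfer and 12.60, 12.56 and 12.42 in controls, a difference of −0.51 (SE 0.15, adjusted p = 0.249). The groups overlapped in none of these entries. The probe set that named H3C13 alone had 8.92, 9.25 and 9.33 after transfer and 9.31, 9.07 and 9.14 in controls, a difference of −0.01. The 10 H3 genes of chromosome 6 shared 16 probe sets, and all 11 of those above background were separated downwards, with a median of −0.59.

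H4 is encoded by genes whose proteins are nearly all the same, and the array did not resolve most of them. The entry naming 14 H4 genes had 7.65, 7.60 and 7.70 on the transfer arrays and 7.94, 8.04 and 7.99 on the control arrays. The groups did not overlap, and the difference was −0.34 (SE 0.13, adjusted p = 0.337, limma), or −0.62 with identical probe sets counted once. It held 38 probe sets. Of the 27 above background, 26 were negative and 21 separated downwards, with a median of −0.49, while 4 of the 11 at background were negative. The remaining H4 entries were less precise. H4C6 had 6.35, 7.50 and 5.19 after transfer and 7.42, 6.72 and 7.01 in controls, which overlapped, and its difference of −0.70 was −0.13 without transfer array 3 and −1.28 without transfer array 2. H4C7 lay at background, with 3.43, 3.21 and 3.29 after transfer and 3.71, 2.96 and 2.57 in controls.

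**Figure D3:**
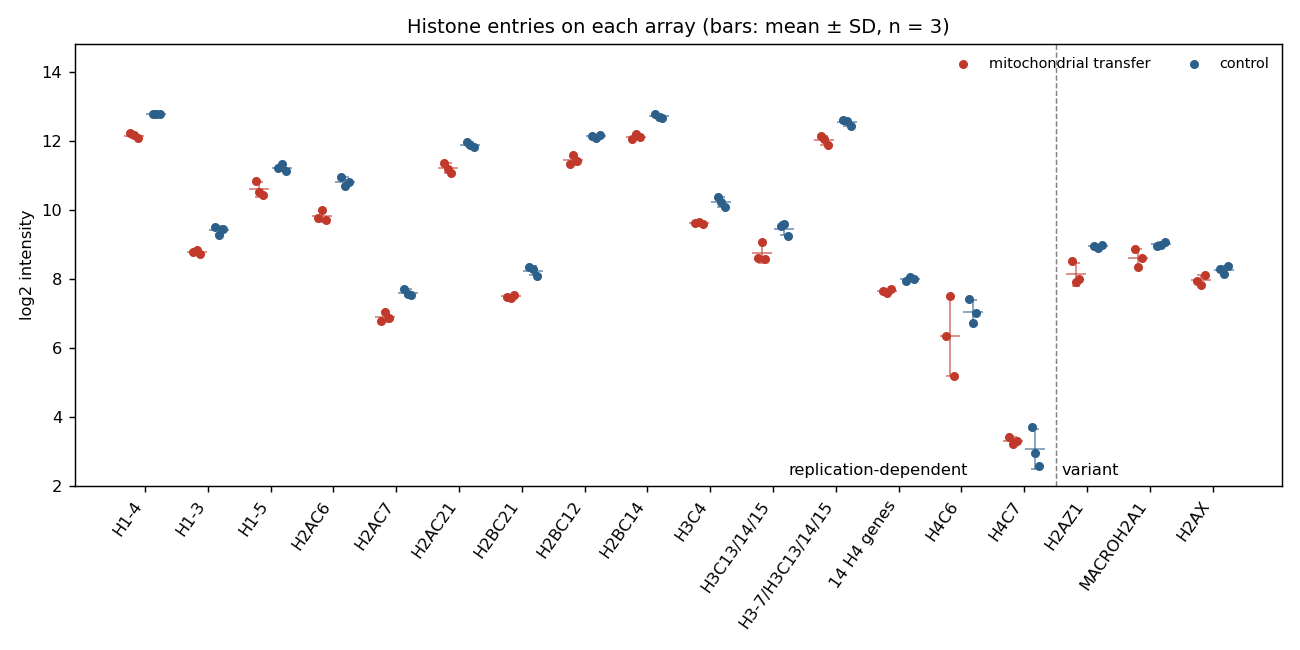
log2 intensity of the histone entries with the smallest p-values in each family, with 1 point per array, the 3 transfer arrays left of the 3 control arrays, and bars for mean ± SD (n = 3). Except for H4C6 and H4C7, every transfer point lies below every control point of the same entry.

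Each genomic cluster had a negative median. The 15 entries of the proximal chromosome 6 cluster (31 genes, positions 26017032 to 26285534, GRCh38.p14) had a median of −0.52, and the 11 of the distal cluster (21 genes, 27132316 to 27893891) had −0.58. On chromosome 1, the 7 entries between 149782689 and 149887965 had −0.44 and the 2 entries between 228457364 and 228458558 (H2AC25 and H2BC26) had −0.79. Family medians spanned a similar range, from −0.34 for the 3 H4 entries to −0.62 for the 5 H1 entries and −0.74 for the 2 entries naming H2A and H3 genes together.

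Variant histones were compared with the replication-dependent ones. The variants include H2AX, whose mRNA can end in a stem-loop or in a poly(A) tail. The 9 variant entries, 8 of them above background, had a median of −0.27. In limma 2 lay lower at an unadjusted p under 0.05, and none passed the adjusted threshold. The difference was negative in 8, and 4 were separated downwards. Of entries above background, 11.4% were lower at that unadjusted p, 65.5% negative and 19.9% separated downwards. The shares of all entries were 8.26%, 55.5% and 13.3%. Per-array medians of the variants were −0.16, −0.32 and −0.19 on transfer arrays 1, 2 and 3, and 0.02, −0.03 and 0.06 on control arrays 1, 2 and 3. The replication-dependent median was 0.29 further from zero, a difference of medians of −0.29, or −0.31 among entries above background. No test was run on this difference, because the entries were grouped with earlier results known. The per-array medians of the 2 classes did not overlap after transfer.

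H2AZ1 encodes H2A.Z, a variant found at promoters. It had 8.51, 7.89 and 7.99 on the transfer arrays and 8.94, 8.90 and 8.96 on the control arrays, a difference of −0.81 (SE 0.19, adjusted p = 0.199, limma) with no overlap. The size of this value rests on the choice of probe sets. With the brightest probe set alone it was −0.35, which is also the median of its 9 probe sets above background, and 4 of its 10 probe sets were separated. With trend and robust options H2AZ1 passed (adjusted p = 0.0281).
MACROH2A1, a variant with a large extra domain found in silent chromatin, had 8.85, 8.34 and 8.59 after transfer and 8.95, 8.96 and 9.07 in controls, a difference of −0.40 (SE 0.17, adjusted p = 0.360). Across the alternatives it ranged from −0.53 to −0.06. Of the 19 MACROH2A1 probe sets 1 was separated downwards and 2 upwards, and the 14 above background had a median of −0.15. H2AX, the variant phosphorylated at DNA breaks, had 7.94, 7.82 and 8.10 after transfer and 8.27, 8.13 and 8.36 in controls, a difference of −0.30 (SE 0.15, adjusted p = 0.429), or −0.47 with its brightest probe set. Both entries lay lower on every transfer array than on any control array. The other 6 variant entries lie outside the rule for named genes. The entry naming H3-3A with 5 more genes differed by −0.27 with the groups separated downwards. H1-10, H2AZ2, H2AJ and the entry of H3-3A and H3-3B differed by −0.43, −0.12, −0.10 and −0.08, and MACROH2A2, at background, by 0.17, all 5 with overlapping groups.

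Germline histones, which are made in testis or oocytes, lay mostly at background. Of 8 entries 2 lay above it, 7 differences were positive and the median was 0.17. Only the entry of H2AB1, H2AB2 and H2AB3 was separated upwards, with 4.05, 3.94 and 4.14 after transfer and 3.76, 3.61 and 3.58 in controls, all below background. The 3 pseudogene entries had a median of 0.02 and overlapping groups.

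The 5 genes that supply histone mRNA had a median of 0.10, with 2 negative, and in limma none passed the adjusted threshold and none lay under an unadjusted p of 0.05. SLBP, the stem-loop binding protein, had 9.05, 8.85 and 8.50 on the transfer arrays and 8.69, 8.29 and 8.58 on the control arrays, a difference of 0.28 (SE 0.19, adjusted p = 0.552). The groups overlapped. The SLBP difference was −0.10 with the mean of its probe sets, one of which had 2.75 on transfer array 3 and 6.66 and 7.14 on the other transfer arrays. NPAT, which activates histone genes in S phase, had 8.96, 8.85 and 8.92 after transfer and 8.68, 8.90 and 8.61 in controls, a difference of 0.18 (SE 0.15, adjusted p = 0.621), which was 0.07 with the mean of its probe sets and 0.32 with the brightest. CASP8AP2 (FLASH), a component of the histone locus body, had 8.10, 8.40 and 8.26 after transfer and 8.40, 8.02 and 8.05 in controls, a difference of 0.10, or 0.45 with the brightest probe set. Both overlapped.

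The U7 proteins differed from each other. LSM10 had 7.18, 6.77 and 6.88 on the transfer arrays and 7.30, 7.37 and 7.18 on the control arrays, a difference of −0.34 (SE 0.16, adjusted p = 0.406), or −0.78 with the brightest probe set. It was the only supply gene with separated groups, by less than 0.01 between the closest arrays. LSM11 had 7.26, 6.91 and 7.22 after transfer and 7.17, 7.16 and 7.10 in controls, a difference of −0.01 (SE 0.15, adjusted p = 0.978) whose sign turned with the normalization (0.05 with quantile normalization, 0.07 with cyclic loess and 0.03 after centring). LSM11 therefore had no direction.

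Other genes of the pathway were taken from 5 lists written from general knowledge, holding 103 measured genes besides the 5. In limma none passed the adjusted threshold. Their median was −0.16, beside −0.10 for all entries above background, with 15 lower and 3 higher at an unadjusted p under 0.05 (11.4% and 3.4% of entries above background) and 35 separated downwards and 7 upwards (19.9% and 6.54% of entries above background). With trend and robust options YY1 and MCM2 passed as lower and RFC3 as higher.

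Histone gene transcription (11 genes) had a median of −0.16. YY1, a zinc-finger factor that binds histone genes, had 7.67, 7.62 and 7.64 after transfer and 8.30, 8.18 and 8.31 in controls, a difference of −0.62 (SE 0.14, adjusted p = 0.187, limma), or −0.30 with its brightest probe set. CCNE2, a cyclin E that activates CDK2 and through it NPAT, went the other way with 8.45, 8.73 and 8.48 after transfer and 7.82, 8.05 and 8.12 in controls, a difference of 0.56 (SE 0.16, adjusted p = 0.244). Neither overlapped. Pre-mRNA processing (21 genes) had a median of −0.07, and its smallest p-values belonged to SYMPK, the scaffold of the cleavage complex, at −0.39 (adjusted p = 0.333) and to CSTF2T, a cleavage stimulation factor, at −0.32 (adjusted p = 0.377), or −0.11 with its brightest probe set.

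Histone mRNA translation and decay (21 genes) had a median of −0.03. UPF1, the helicase that starts histone mRNA decay when replication stops, had 8.72, 8.53 and 8.59 after transfer and 8.96, 9.12 and 9.19 in controls, a difference of −0.48 (SE 0.15, adjusted p = 0.267, limma). All 18 of its probe sets were negative, but the difference was −0.08 with the brightest of them. MIF4GD (SLIP1), which links SLBP to translation, differed by −0.46 (SE 0.14, adjusted p = 0.271), but by 0.08 with its brightest probe set. Histone chaperones and assembly factors (31 genes) had a median of −0.22, with 8 lower and 0 higher at an unadjusted p under 0.05, against 11.4% and 3.4% of entries above background, and with 15 separated downwards and 3 upwards, against 19.9% and 6.54%. RBBP7, which binds H4 in several assembly complexes, differed by −0.51 (adjusted p = 0.249), but by −0.08 with its brightest probe set and −0.27 with the mean of its probe sets. MCM2, a helicase subunit that also binds H3 and H4, had 9.15, 8.99 and 8.98 after transfer and 9.51, 9.50 and 9.50 in controls, a difference of −0.47 (adjusted p = 0.253) that was −0.22 with the brightest probe set and −0.25 with the mean.

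The S phase genes (24 measured) were the closest reference for replication itself. Their median was −0.17, with 1 lower and 2 higher at an unadjusted p under 0.05, against 11.4% and 3.4% of entries above background. Of these genes 8 were separated downwards and 2 upwards, against 19.9% and 6.54% of entries above background. Their per-array medians were −0.13, −0.13 and −0.17 on transfer arrays 1, 2 and 3, and −0.06, 0.01 and 0.07 on control arrays 1, 2 and 3. RFC3, a subunit of the clamp loader, had 9.39, 9.67 and 9.66 after transfer and 8.94, 8.92 and 9.16 in controls, a difference of 0.57 (SE 0.16, adjusted p = 0.239, limma) that was 0.32 with the brightest probe set and 0.25 with the mean. MCM4, a subunit of the replicative helicase, differed by 0.35 (SE 0.13, adjusted p = 0.327) and was also separated upwards, with 0.11 for the brightest probe set and 0.13 for the mean. The gene lower at an unadjusted p under 0.05 was MCM7, another subunit of that helicase and named after its values were seen. It had 9.78, 9.87 and 9.77 after transfer and 10.17, 10.09 and 10.17 in controls, a difference of −0.34 (SE 0.13, adjusted p = 0.338) with the groups apart. MCM2, a subunit of the same helicase that lay lower at −0.47, was counted with the chaperones and not among these 24 genes. Of the 24 genes 15 were negative, beside 65.5% of entries above background, whereas 37 of the 40 replication-dependent histone entries were.

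Marker lists were summarized in the same way. The 20 NK cell markers had a median of −0.23, beside −0.10 for all entries above background. In limma 6 lay lower and 1 higher at an unadjusted p under 0.05, against 11.4% and 3.4% of entries above background. Of the markers 11 were separated downwards and 2 upwards, against 19.9% and 6.54%. NK cell markers had median levels of 9.22 to 9.39 after transfer and 9.50 to 9.57 in controls. Hepatocyte markers had median levels of 4.70 to 4.97 after transfer and 4.65 to 5.25 in controls, both below background. The part of either in the histone differences was not tested.

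**Figure D4:**
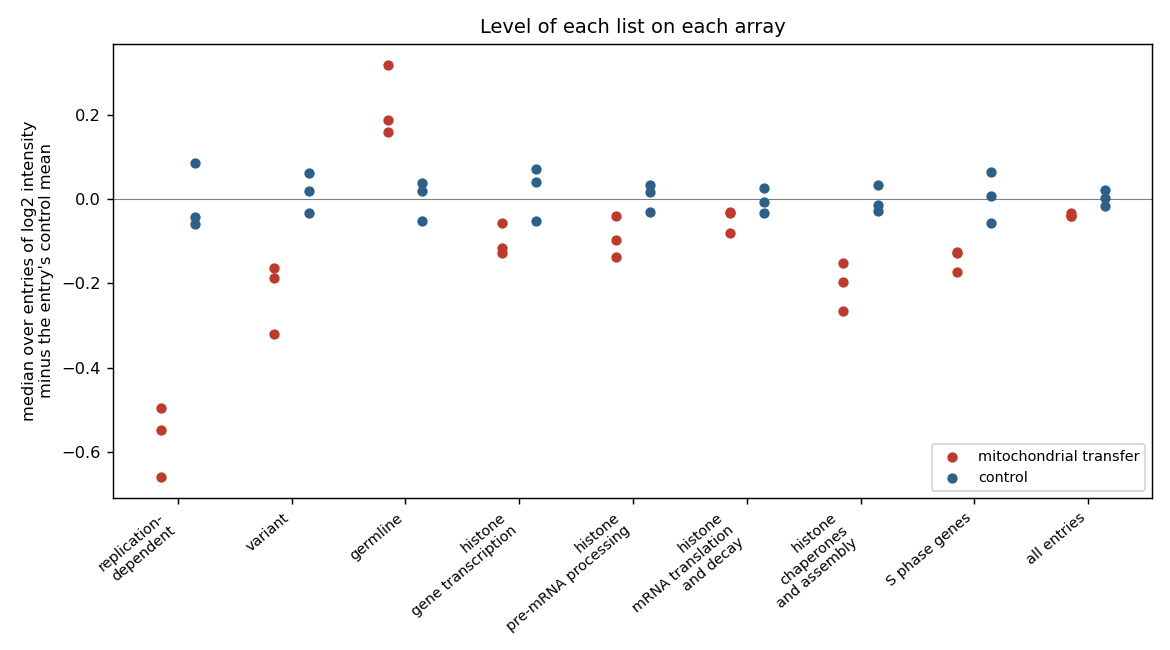
Median over the entries of each list of the log2 intensity minus the control mean of the entry, with 1 point per array and the 3 transfer arrays left of the 3 control arrays. Replication-dependent histones lie between −0.66 and −0.50 on the transfer arrays, lower than the variants and every other list plotted.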

How the data were processed

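RNA of 3 Mitochondrial transfer and 3 Control samples of NK-92MI cells was measured on Affymetrix whole-transcript arrays. The deposited values are log2 intensities per probe set, which per the labels the authors made with RMA in Affymetrix Power Tools; versions and the genome build are not given in the sources used here. RMA subtracts background and quantile-normalizes the arrays, which removes a shift common to all probes. No further normalization was applied.

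Of 352859 probe sets, 272340 named genes in the platform annotation; old histone symbols were updated. An entry is 1 distinct set of named genes, valued at the median of its probe sets. limma 3.58.1 (R 4.3.3; lmFit and eBayes, two-sided, without trend or robust) was fitted over all 24214 entries and again over all probe sets, and p-values were adjusted over each whole table (Benjamini-Hochberg, 0.05). The procedure was tested on simulated data. Groups and replicate numbers came from the sample titles. Same-numbered arrays did not deviate together (r = 0.04, 0.01 and 0.00 for replicates 1, 2 and 3).

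The members, classes and lists were chosen with earlier results of these data known, so lists are given as counts and medians. Named genes were, per replication-dependent family and for variants, the 3 with the smallest p, the 5 supply genes, and the 2 with the smallest p in each list. Alternatives covered normalization, dim features, the variance model, array weights, the replicate block, single arrays left out, the t-test, the value per entry and entries naming several genes. Counting identical probe sets once and leaving out mixed families were added after seeing the data. So was the split of the probe sets within an entry at the probe-set background of 6.15.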

Additional observations from a re-analysis of the deposited data

How the results depend on the processing

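The median difference of replication-dependent histones stayed negative in all settings, from −0.59 to −0.47, with the smallest size under quantile normalization (−0.47). The variant median ranged from −0.30 to −0.18 (cyclic loess −0.18), and the difference of the medians from −0.36 to −0.27. Leaving out single arrays gave −0.59 to −0.51 for replication-dependent and −0.27 to −0.20 for variant histones. The count of histone entries past the threshold was 0 in the main setting, under every single array left out and with the replicate block, but 21 with trend and robust, 8 with the brightest probe set, 3 without dim features and 2 with the mean of probe sets; for histone probe sets it was 34 with trend and robust, 1 without dim features and 1 with the t-test. Trend and robust called 2 pathway genes lower and 1 higher. The cause of these moves was not tested. Variant entries under an unadjusted p of 0.05 numbered 1 with quantile normalization, cyclic loess, centring and the replicate block, 4 with trend and robust, the brightest probe set and the mean of probe sets, and 1 to 2 with single arrays left out.

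Signs turned for LSM11 (0.049 with quantile normalization, 0.074 with cyclic loess, 0.027 after centring, and −0.076 to 0.095 with single arrays left out), H4C7 (−0.024 without Control replicate 3, within −0.024 to 0.547 with single arrays left out), MIF4GD (0.081 with the brightest probe set) and SLBP (−0.102 with the mean of probe sets). With the replicate block, over numbers that did not pair the arrays, 1 of 24214 entries passed in all, against 16 without it. With trend and robust 347 entries passed, with the brightest probe set 467, with the mean 90, without dim features 85 and with the t-test 0. Signal near background limits the 5 dim replication-dependent entries and the germline histones.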
